A study of Saccharomyces cerevisiae with 9 samples.

Results

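Transcripts of the acid phosphatases and phosphate transporters of budding yeast were followed in cells that lack LOS1, the gene of a nuclear export receptor for tRNA, and in their wild-type parent. The group was set by gene symbol, with earlier results of these data known. It held the secreted acid phosphatases PHO5, PHO11, PHO12 and PHO3, the vacuolar alkaline phosphatase PHO8, and phosphate transporters PHO84, PHO89, PHO87, PHO90 and PHO91. Of these 10 genes, 9 had a probe set under their own name, out of 5449 genes measured. PHO12 had none, and the probe set named for its near-identical paralog PHO11 is of a kind that can hybridise to transcripts of near-identical genes, so PHO11 values may hold signal from PHO12. Each of the 9 genes had 1 probe set.

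The deletion group held 3 arrays (cultures 7, 8 and 9) of strain BY4742 with LOS1 knocked out, whose titles also name URA3. The wild-type group held 6 arrays (cultures 1 to 6) of BY4742, a haploid laboratory strain of mating type alpha that lacks working URA3, LEU2, LYS2 and HIS3 genes. All cultures grew in rich YEPD medium with shaking at 225 rpm and 30 °C, and were collected at an OD600 of 0.5. Titles of the wild-type arrays also name a glucose level, and titles of the deletion arrays name none. The titles alone therefore do not tell whether the groups had the same glucose level. The protocol names 3 isolates per strain, grown once for the deletion and in duplicate for wild type, without telling which wild-type arrays came from one isolate, so the p-values measure the spread between cultures, part of which may be within an isolate. The design text frames the comparison as a search for factors that act on lifespan after loss of Los1, with nutrients not restricted.

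Yeast cells sense phosphate through the PHO pathway. When phosphate is plentiful, the cyclin-dependent kinase Pho85 with its cyclin Pho80 phosphorylates the transcription factor Pho4 and keeps it out of the nucleus. When phosphate runs short, the inhibitor Pho81 stops the kinase, and Pho4 enters the nucleus and, with Pho2, switches on secreted phosphatases that free phosphate from organic compounds outside the cell and transporters with high affinity that bring it in. Transporters with low affinity are made whatever the supply, and PHO3 is best known as a phosphatase under the control of thiamine rather than of phosphate.

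The arrays matched their labels. LOS1 lay at 3.65, 2.76 and 3.18 on the log2 scale in the deletion cultures, under background on all 3, against 10.89 to 11.34 in wild type, with a limma adjusted p of 4.79e-10 and a level at least 84.1-fold lower. URA3 was at 10.84 to 10.91 in the deletion cultures and under background on all 6 wild-type arrays, with a limma adjusted p of 2.06e-11 and a level at least 72.8-fold higher, and the effects of losing LOS1 and of carrying URA3 cannot be told apart. HIS3 and MET17 also rose, by 0.69 and 0.66 on the log2 scale (limma adjusted p = 3.68e-04 and 0.00158). HIS3, though not working in this strain, read above background on all 9 arrays. LEU2 and LYS2 had differences of -0.01 and 0.08 that did not pass (limma adjusted p = 0.947 and 0.789). LEU2 was above background on 2 of the 9 arrays and LYS2 on 1, so their differences say little. Alpha mating-type markers were measured at 11.76 to 13.97 in the deletion and 11.75 to 13.89 in wild type (4 genes). Markers of mating type a were at 5.31 to 7.71 in the deletion and 5.11 to 7.82 in wild type (6 genes). Neither list held a gene past the threshold, and STE3 and STE6 had the smallest p in them, with differences of -0.15 and -0.17 (limma adjusted p = 0.0757 and 0.158). The background level, the 95th percentile of fission yeast probe sets on the same array, was 4.68 to 4.74, and all 9 genes described here lay above it on every array.

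The repressible acid phosphatases and the transporters of high affinity fell, while PHO8 and the members not known to answer to phosphate did not pass the test. Levels are given as log2 expression and a difference is the deletion mean minus the wild-type mean, tested with limma and adjusted by Benjamini-Hochberg over all 5449 genes with a threshold of 0.05. PHO5, PHO89, PHO11 and PHO84 fell, so 4 of the 9 measured members were lower and 0 were higher, where 2.9% of all genes were lower, 2.62% higher and 5.52% either. PHO5, PHO89 and PHO11 were also at least 1.5-fold lower, 3 of the 9, against 0.606% of all genes. The same 4 genes had groups that did not overlap, with every deletion culture below every wild-type culture, a pattern that 7.38% of all genes showed. No member had every deletion culture above every wild-type culture (0 of 9), against 5.19% of all genes. The members were chosen with earlier results of these data known, so these shares describe them and are no test. The median difference was -0.24 over the 9 members and -0.01 over all genes. A bulk culture gives an average, so fewer cells that express a gene and less RNA in every cell cannot be told apart.

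**Figure D1:**
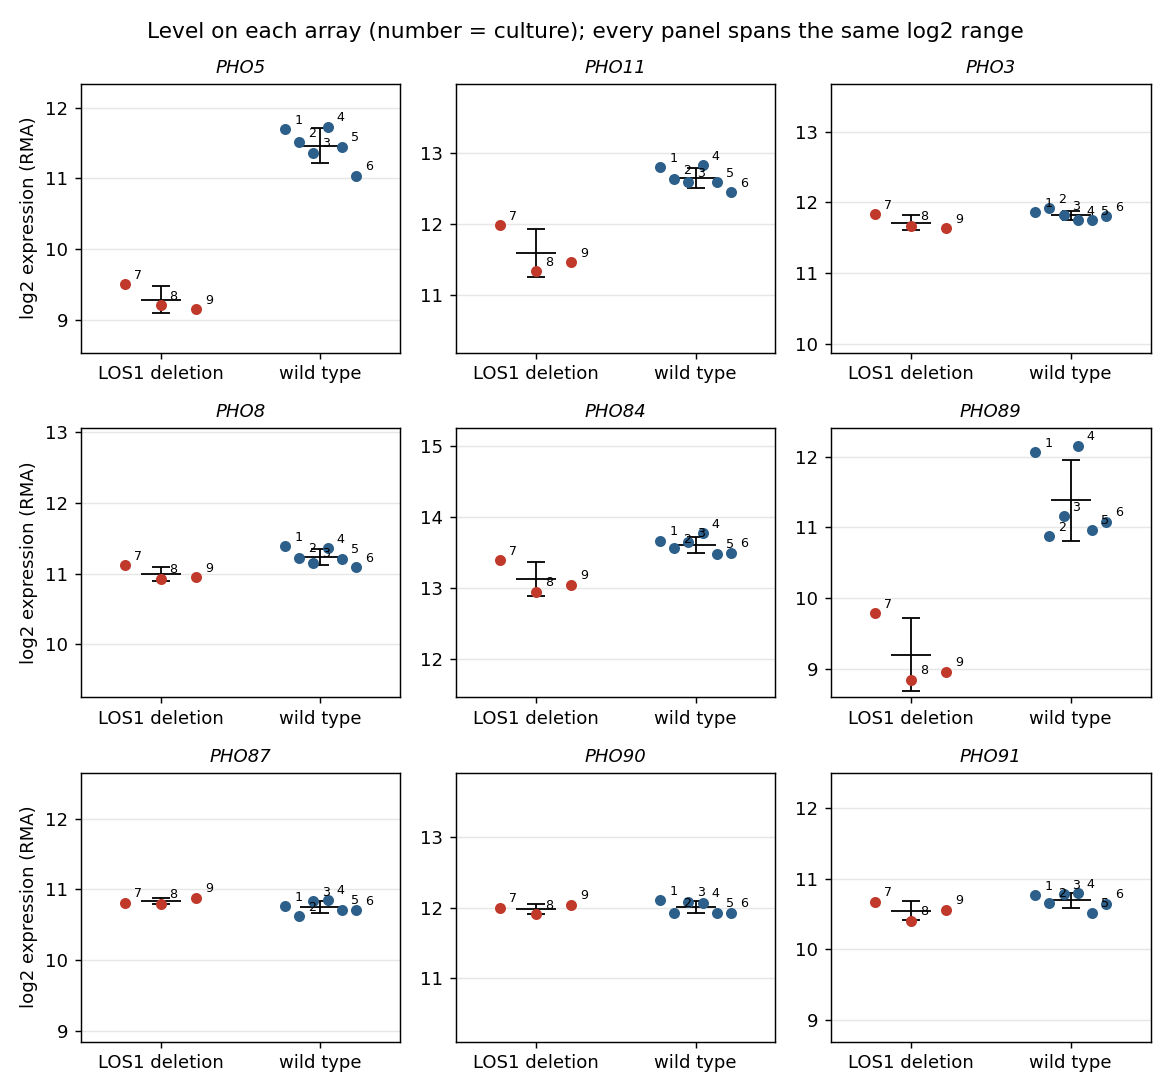
Log2 expression of each measured gene (vertical axis, RMA values, every panel spanning the same log2 range) in 3 LOS1 deletion cultures (red, left) and 6 wild-type cultures (blue, right); the number beside a point is the culture, and bars show mean ± SD. PHO5, PHO11, PHO84 and PHO89 show no overlap between the groups, and the other 5 genes overlap.

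Among the secreted acid phosphatases, the largest fall was in PHO5 (YBR093C), the main repressible acid phosphatase of the cell wall and periplasm. PHO5 was at 9.50, 9.20 and 9.15 in deletion cultures 7, 8 and 9, against a lowest, median and highest value of 11.03, 11.48 and 11.73 in wild type. Every deletion culture lay at least 1.53 below every wild-type culture. The means were 9.29 ± 0.19 in the deletion (SD, n = 3) and 11.46 ± 0.25 in wild type (SD, n = 6), a difference of -2.18 ± 0.14 (SE, limma adjusted p = 1.79e-05). This is 4.52-fold lower, with a 95% interval of 3.64 to 5.62. Of the 5449 genes, LOS1 and PHO89 alone had a lower difference.

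PHO11 (YAR071W), a minor repressible acid phosphatase, fell as well, by less. The probe set read 11.98, 11.33 and 11.46 in the deletion cultures, against 12.45, 12.61 and 12.83 (lowest, median, highest) in wild type. Deletion culture 7 lay closest to wild type, 0.47 below the lowest wild-type value. The means were 11.59 ± 0.34 in the deletion (SD, n = 3) and 12.65 ± 0.14 in wild type (SD, n = 6), 2.09-fold lower with a 95% interval of 1.70 to 2.56 (difference -1.06 ± 0.13, SE, limma adjusted p = 0.0013). How much of this signal came from PHO12 was not tested.

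PHO3 (YBR092C), the constitutive acid phosphatase that lies next to PHO5 on the chromosome, did not pass. It was at 11.83, 11.67 and 11.64 in the deletion cultures and 11.75, 11.81 and 11.92 (lowest, median, highest) in wild type. The groups overlapped, since deletion culture 7 lay inside the wild-type range. The means were 11.71 ± 0.10 in the deletion (SD, n = 3) and 11.82 ± 0.07 in wild type (SD, n = 6), a difference of -0.10 with a 95% interval of -0.23 to 0.02 (limma adjusted p = 0.314).

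Unequal change of paralogs was tested on the log2 difference between 2 probe sets on each array, with an exact 2-sided permutation test over all 84 assignments of the 9 arrays, whose smallest p is 0.0119. In all 9 pairs of members were compared, and p-values were adjusted over them. The members were chosen with earlier results of these data known, so these p-values describe the pairs and are no independent evidence. The value of PHO5 minus PHO3 fell by 2.07 in the deletion relative to wild type (exact permutation p = 0.0119, adjusted p = 0.0179). PHO5 also fell by 1.12 more on the log2 scale than PHO11 (exact permutation p = 0.0119, adjusted p = 0.0179). In both pairs the 3 deletion cultures lay outside the range of the 6 wild-type cultures.

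PHO8 (YDR481C), the vacuolar alkaline phosphatase, is a weak target of Pho4. PHO8 was at 11.12, 10.93 and 10.95 in the deletion cultures and at 11.09, 11.22 and 11.38 (lowest, median, highest) in wild type. Culture 7 alone overlapped the wild-type range. The means were 11.00 ± 0.10 in the deletion (SD, n = 3) and 11.24 ± 0.12 in wild type (SD, n = 6). The difference of -0.24 had a 95% interval of -0.40 to -0.08 before adjustment, and did not pass over all genes (unadjusted p = 0.00757, limma adjusted p = 0.0865). The PHO8 difference lay 1.94 above that of PHO5 (exact permutation p = 0.0119, adjusted p = 0.0179).

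**Figure D2:**
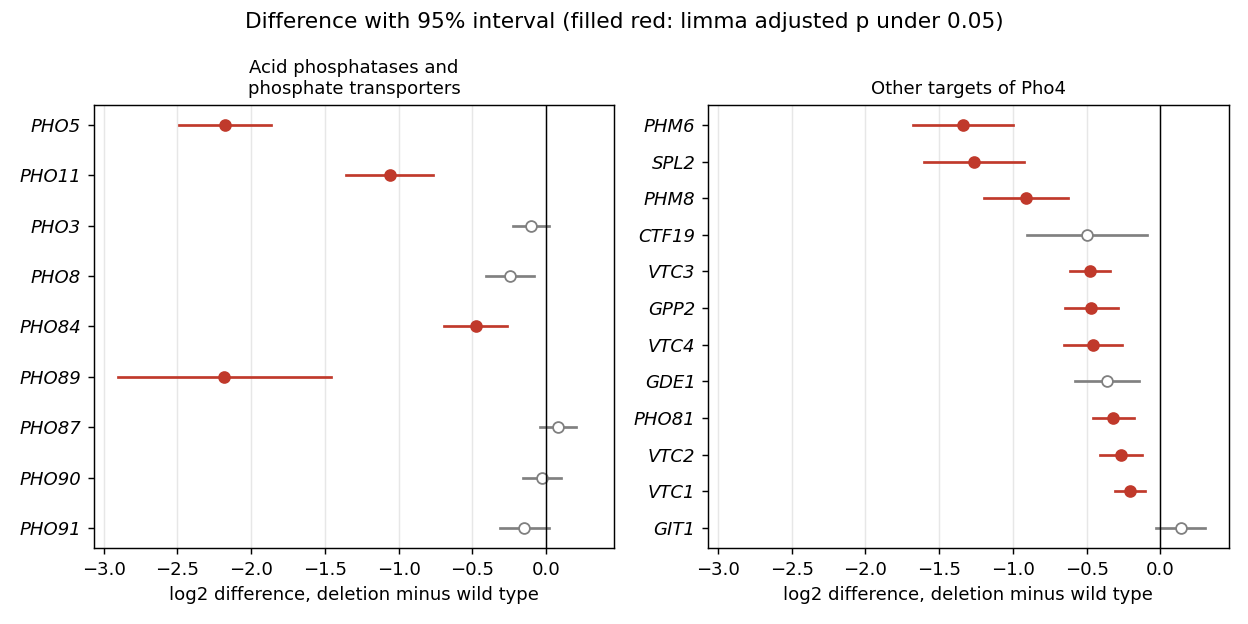
Difference in log2 expression, deletion minus wild type (horizontal axis), with its 95% interval from limma, for the 9 measured members (left) and for 12 other targets of Pho4 (right); filled red points have an adjusted p under 0.05 and open grey points do not. PHO5 and PHO89 lie near -2.18, PHO11 at -1.06 and PHO84 at -0.48, and 9 of the 12 other targets lie below 0 with an adjusted p under 0.05.

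Both transporters of high affinity fell, by unequal amounts. PHO89 (YBR296C), which brings phosphate in together with sodium and works best at alkaline pH, was at 9.79, 8.85 and 8.96 in the deletion cultures. In wild type it was at 12.06, 10.88, 11.16, 12.16, 10.97 and 11.08 in cultures 1 to 6. Cultures 1 and 4 stood at least 0.90 above the other 4 wild-type cultures, and the lowest wild-type value still lay 1.09 above the highest deletion value. The means were 9.20 ± 0.51 in the deletion (SD, n = 3) and 11.38 ± 0.57 in wild type (SD, n = 6), 4.54-fold lower with a 95% interval of 2.75 to 7.50 (difference -2.18 ± 0.33, SE, limma adjusted p = 0.00349). Only 21 of the 5449 genes varied more among the wild-type cultures. Without cultures 1 and 4, the wild-type mean was 11.02 ± 0.13 (SD, n = 4) and PHO89 was 3.53-fold lower in the deletion (difference -1.82 ± 0.20, SE, limma adjusted p = 0.0023).

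PHO84 (YML123C), the proton-coupled transporter that carries most phosphate uptake under starvation, was at 13.39, 12.94 and 13.04 in the deletion cultures. Wild type lay at 13.48, 13.60 and 13.77 (lowest, median, highest). The groups did not overlap, but only 0.09 separated deletion culture 7 from the lowest wild-type culture. The means were 13.13 ± 0.23 in the deletion (SD, n = 3) and 13.60 ± 0.11 in wild type (SD, n = 6), 1.39-fold lower with a 95% interval of 1.20 to 1.62 (difference -0.48 ± 0.10, SE, limma adjusted p = 0.0207). The call was lost without deletion culture 8 (limma adjusted p = 0.0967), without deletion culture 9 (limma adjusted p = 0.0975), without wild-type cultures 1 and 4 together (limma adjusted p = 0.0743) and in 8 of the 15 ways of averaging the wild-type arrays in pairs. PHO84 lay near the top of the scale, on which the highest gene reached 14.67 in the deletion and 14.65 in wild type, and whether its probes were saturated was not tested.

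Relative to PHO84, PHO89 fell by 1.71 on the log2 scale and PHO5 fell by 1.70 (both exact permutation p = 0.0119, adjusted p = 0.0179). PHO5 and PHO89 had almost equal differences, with 0.01 between them and spreads of 0.33 in the deletion (SD, n = 3) and 0.44 in wild type (SD, n = 6) for the difference of both probe sets. That pair did not pass (exact permutation p = 0.976), which does not show that they change alike: leaving out 1 array moved the value between -0.13 and 0.19.

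**Figure D3:**
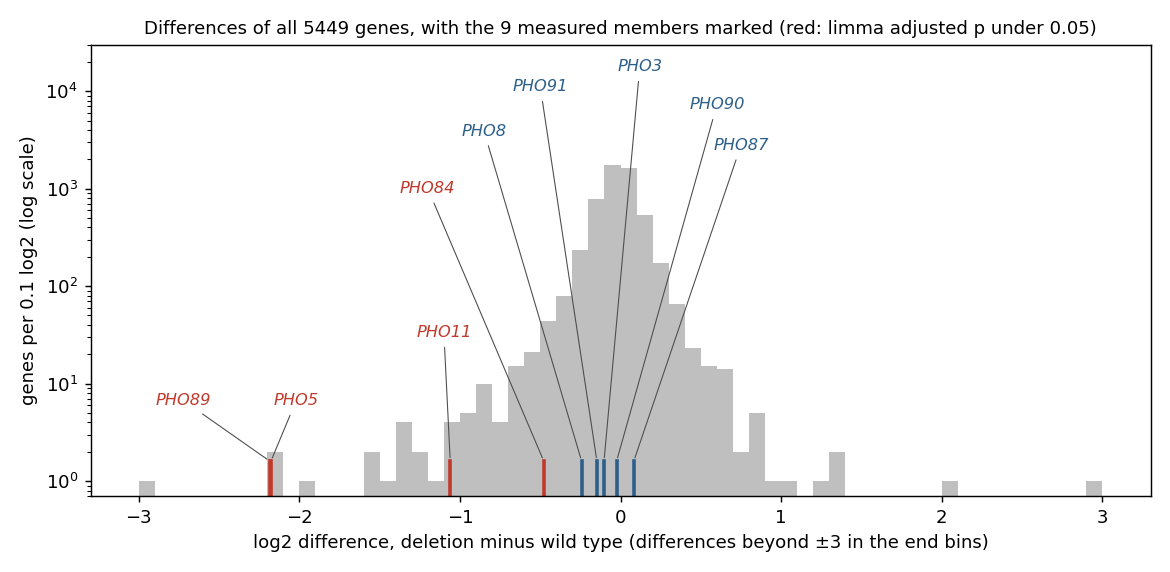
Number of genes (vertical axis, log scale) by log2 difference, deletion minus wild type (horizontal axis, in steps of 0.1), for all 5449 genes, with vertical marks for the 9 measured members, red where the limma adjusted p is under 0.05. PHO89 and PHO5 lie at the far left end, with LOS1 alone below them in the end bin, while PHO3, PHO87, PHO90 and PHO91 lie within the central bulk.

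The 3 transporters not known as targets of Pho4 did not pass, with differences from -0.15 to 0.08. PHO87 (YCR037C), a low-affinity transporter of the plasma membrane, was at 10.81, 10.80 and 10.88 in the deletion cultures and 10.62, 10.74 and 10.85 (lowest, median, highest) in wild type. The deletion values lay in the upper part of the wild-type range and beyond it, and the difference of 0.08 had a 95% interval of -0.04 to 0.21 (limma adjusted p = 0.418). PHO90 (YJL198W), the other low-affinity transporter of the plasma membrane, was at 12.00, 11.91 and 12.04 in the deletion cultures and 11.92, 12.00 and 12.10 in wild type. Its groups overlapped nearly in full, with a difference of -0.02 and a 95% interval of -0.15 to 0.10 (limma adjusted p = 0.841). For PHO87 the interval allows from 0.972-fold to 1.15-fold of wild type, and for PHO90 from 0.899-fold to 1.07-fold.

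PHO91 (YNR013C), which moves phosphate out of the vacuole, was at 10.68, 10.4 and 10.56 in the deletion cultures and at 10.52, 10.71 and 10.79 (lowest, median, highest) in wild type. Culture 8 alone lay below the wild-type range. The difference of -0.15 had a 95% interval of -0.31 to 0.02 (limma adjusted p = 0.285). Between these transporters small unequal changes passed the exact test. PHO87 lay 0.11 higher relative to PHO90 in the deletion than in wild type, with no overlap of the groups (exact permutation p = 0.0238, adjusted p = 0.0306). This pair passed in 9 of 13 alternatives, with an exact permutation p of up to 0.0714. PHO90 lay 0.12 higher relative to PHO91 (exact permutation p = 0.0357, adjusted p = 0.0402). The PHO90 and PHO91 pair overlapped between the groups and passed in 4 of 13 alternatives. PHO84 fell relative to PHO90 by 0.45 on the log2 scale (exact permutation p = 0.0119, adjusted p = 0.0179). The exact tests treat every array alike, although duplicates of 1 isolate may resemble each other.

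The cultures kept a similar order across members. Culture 7 was the highest deletion culture for 7 of the 9 members, and for 31.3% of all genes. Culture 8 was the lowest deletion culture for 7 of the 9, and for 41.0% of all genes. In wild type, culture 4 was the highest for 6 of the 9 members, against 10.6% of all genes, and culture 6 the lowest for 4, against 14.6%. Without culture 7 the deletion mean was 8.91 for PHO89 and 11.39 for PHO11, and leaving out culture 7 changed no call among the members. Members share their arrays, so these counts describe the cultures and are no test.

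**Figure D4:**
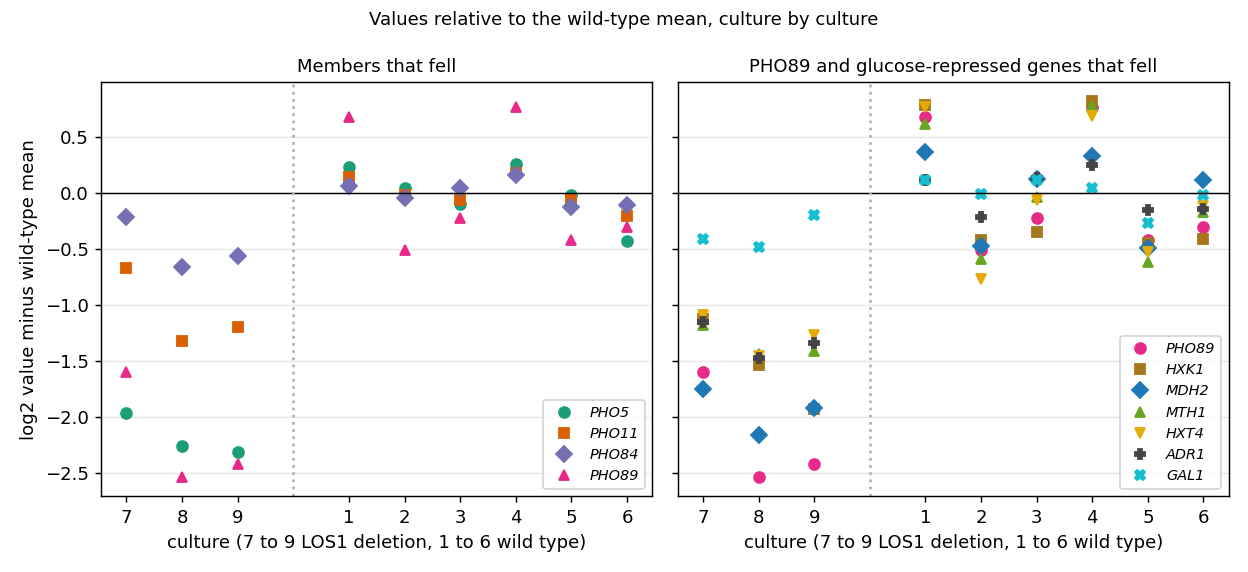
Log2 value minus the wild-type mean (vertical axis) in deletion cultures 7 to 9 and wild-type cultures 1 to 6 (horizontal axis) for the members that fell (left) and for PHO89 beside the 6 glucose-repressed genes that fell (right). In the left panel every deletion point lies below every wild-type point of its gene, and in the right panel wild-type cultures 1 and 4 lie above the other wild-type cultures for PHO89, HXK1, MDH2, MTH1 and HXT4 but not for ADR1 or GAL1.

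Genes elsewhere in the pathway were read from lists chosen with earlier results of these data known. Of 12 other targets of Pho4, 9 fell and 0 rose, with a median difference of -0.46, where 2.9% of all genes fell and 2.62% rose. The largest falls were in PHM6, a gene of unknown function induced by phosphate starvation, SPL2, which restrains low-affinity phosphate uptake, and PHM8, a phosphatase of lipid and nucleotide phosphates, with differences of -1.34, -1.26 and -0.91 (limma adjusted p = 0.000696, 0.00106 and 0.00249). All 4 measured subunits of the complex that makes vacuolar polyphosphate fell: VTC3 by 0.48, VTC4 by 0.46, VTC2 by 0.26 and VTC1 by 0.20 on the log2 scale. GPP2, a glycerol phosphate phosphatase, and PHO81, the inhibitor of the kinase, fell by 0.47 and 0.32 (limma adjusted p = 0.0097 and 0.0181). The calls of PHM6, SPL2, PHM8, VTC3 and GPP2 were kept in all 9 fits without 1 array, and those of PHO81, VTC4, VTC1 and VTC2 were not. GDE1, which breaks down glycerophosphocholine, the kinetochore gene CTF19 and the glycerophosphoinositol transporter GIT1 did not pass, with differences of -0.36, -0.50 and 0.14.

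Of 14 genes of phosphate signalling, 1 fell and 0 rose, with a median difference of -0.02. Since 2.9% of all genes fell and 2.62% rose, a count of 0 or 1 in a short list says little about it. The gene was VIP1, a kinase that makes inositol pyrophosphates, which fell by 0.25 on the log2 scale (limma adjusted p = 0.0478), a call lost in 6 of the 9 fits without 1 array and under all 15 pairings of the wild-type arrays. The transcription factor genes PHO4 and PHO2 had differences of 0.03 and -0.15, and the kinase and cyclin genes PHO85 and PHO80 had 0.05 and 0.03, and none of these passed (limma adjusted p from 0.24 to 0.839). Of 6 genes of other phosphate transport and trafficking, PHO86, needed for Pho84 to leave the endoplasmic reticulum, fell by 0.23 (limma adjusted p = 0.018). That call was lost without deletion culture 8 or 9, without wild-type cultures 1 and 4, with all probe sets tested and in 2 of the 15 pairings. It was also lost at 0.01 and at 1.5-fold. Neither of 2 measured polyphosphatase genes passed, with PPN1 at -0.09 (limma adjusted p = 0.437), nor did the other phosphatases DIA3, an acid phosphatase relative, at 0.24 (limma adjusted p = 0.0685) and PHO13 at -0.01.

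Lists linked to single members were set beside them. Over all genes 2.9% fell and 2.62% rose, so counts of 0 or 1 in lists this short say little about them. For PHO3, 1 of 16 measured thiamine genes fell, the transporter THI7, by 0.41 on the log2 scale (limma adjusted p = 0.018). That call was lost without deletion culture 8, without wild-type cultures 1 and 4, at 0.01 and at 1.5-fold. The median difference of the thiamine list was -0.07. For PHO89, 0 of 10 measured genes on a list of calcineurin signalling and alkaline pH passed, with CMP2, a calcineurin subunit, at -0.20 (limma adjusted p = 0.12). ENA1, also on that list, was not measured. The list also holds PHR1, in this yeast a DNA photolyase gene rather than one of alkaline pH (difference -0.06, limma adjusted p = 0.58). For PHO5, whose promoter is a textbook case of chromatin opening, 0 of 11 genes of chromatin factors passed, with GCN5, a histone acetyltransferase, at -0.07 (limma adjusted p = 0.426). Of 20 measured genes on a list of genes repressed by glucose, 6 fell and 1 rose, with a median difference of -0.32. The list also holds MIG2, a repressor gene not itself known as repressed by glucose, which did not pass (difference -0.36, limma adjusted p = 0.232). MDH2, a malate dehydrogenase of gluconeogenesis, ADR1, an activator of glucose-repressed genes, and the hexokinase HXK1 fell by 1.94, 1.32 and 1.53 on the log2 scale. MTH1, a regulator of hexose transporter genes, HXT4, a hexose transporter, and GAL1, the galactokinase, fell by 1.34, 1.27 and 0.36, and SIP4, an activator of gluconeogenic genes, rose by 0.50 (limma adjusted p for the 7 genes from 1.28e-04 to 0.0489). Of these 7 calls, those of MDH2 and ADR1 were kept in all 9 fits without 1 array.

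Wild-type cultures 1 and 4 stood above the other wild-type cultures in 13 of the 20 genes measured from the glucose-repressed list. MIG2 was among the 13. They did so in 5 of the 9 members, against 13.6% of all genes. Cultures 1 and 4 stood below the others in 1 of the 20, SUC2, the gene of invertase, against 7.74% of all genes. They stood neither above nor below in the other 6, ADR1, GAL1 and PCK1 among them. This pattern was chosen after the values were seen. The mean of the 20 genes, relative to the wild-type mean, was -0.47, -0.62 and -0.56 in deletion cultures 7, 8 and 9. In wild type it was 0.35 and 0.30 in cultures 1 and 4, and -0.26, -0.06, -0.28 and -0.06 in cultures 2, 3, 5 and 6. HXK1 had a gap of 1.13, and MDH2 one of 0.20, between cultures 1 and 4 and the other wild-type cultures, beside the gap of 0.90 in PHO89. PHO5, PHO11 and PHO8 showed the same order with gaps of 0.18, 0.17 and 0.14, and PHO84 with 0.02. The part of glucose-repressed genes in the PHO89 result was not tested.

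Profiles most like those of 3 members were found by the root mean square difference of the values on the 9 arrays, each relative to the gene's wild-type mean. For PHO5 the nearest were MDH2 (0.35), PHO89 (0.36), HXK1 (0.52), ADR1 (0.52) and PHM6 (0.53). For PHO89 they were MDH2 (0.34), PHO5 (0.36), HXK1 (0.41), MPC3 (0.45), a subunit of the mitochondrial pyruvate carrier, and HXT7 (0.51), a hexose transporter read by a probe set open to similar transcripts. For PHO84 the nearest were VTC4 (0.06) and VTC3 (0.08), then YBR284W (0.09), SUR1 (0.09), which acts in sphingolipid synthesis, and CDA1 (0.10), a chitin deacetylase. This measure favours genes with a difference of the same size, and few genes fell as far as PHO5 and PHO89.

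No measured neighbour on the chromosome that is not itself a member passed as lower. Over all genes 2.9% fell and 2.62% rose, so counts among so few neighbours say little about them. Neighbours came from the gene order of the RefSeq assembly R64, which supplied names and order only. Of 17 neighbours that are no members, 14 were measured, with differences from -0.66 to 0.74, and 2 passed, both higher in the deletion. They are named here after their values were seen: YAR068W beside PHO11, which rose by 0.36 (limma adjusted p = 0.0439), and IMD2, an enzyme of guanine nucleotide synthesis beside PHO12, which rose by 0.74 on the log2 scale (limma adjusted p = 4.48e-04). PBY1 and PCA1, beside PHO5 and PHO89, had differences of -0.19 and -0.29 that did not pass (limma adjusted p = 0.0711 and 0.0644).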

How the data were processed

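Each of 9 Affymetrix Yeast_2 arrays measured RNA of 1 culture. The deposited log2 values are RMA summaries of probe sets, as the submitters' processing notes name the tool; its version is not given in the sources used here. RMA subtracts background and forces arrays to one distribution, so differences are relative to other transcripts on an array and changes of very dim or very bright genes can be compressed. Precision is limited by how many arrays there are. Of 10928 probe sets, 7244 named 1 gene, 1 named several and 3683 named none; 5498 matched RefSeq genes of S. cerevisiae assembly R64 (12 symbols updated) and 1746 were taken as fission yeast. The brightest probe set was kept for 47 genes with several, leaving 5449. No 2 arrays were copies, with at most 2 equal values over the genes. The SD between arrays, as a median over genes, was 0.0704 for the deletion and 0.0895 for wild type.

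Groups came from sample titles. Differences were fitted with limma 3.58.1 (lmFit, eBayes, 2-sided; R 4.3.3), tested on simulated data, with Benjamini-Hochberg adjustment over 5449 genes. A fold against a group under background sets that group to the background level. Members and lists were chosen with earlier results of these data known. Named were the members, each list's genes past the threshold (or its smallest p), and the 5 nearest profiles of PHO5, PHO84 and PHO89. The alternatives were array centring, repeated quantile normalization, dim genes left out, averaged probe sets, all probe sets tested, an intensity trend with robust prior (statmod 1.5.0), weighted arrays, separate group variances, a threshold of 0.01, at least 1.5-fold besides the threshold, wild-type arrays averaged in each of 15 pairings, each array left out, and wild-type cultures 1 and 4 left out. Coordinates were not used.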

Additional observations from a re-analysis of the deposited data

Results flagged for a closer look

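Wild-type arrays were looked at for 32 genes, the 9 measured members and the other listed genes past the threshold. Other genes named above were not included. Of the 32, 2 had a wild-type array far from the other 5. Its gap to its nearest neighbour was large for their whole range (Dixon's test at 95%), and chance alone gives about 1 in 20. PHO81 was at 11.08 in wild-type culture 6, against 11.23 to 11.30 in the other wild-type cultures, while the deletion mean was 10.91 ± 0.12 (SD, n = 3). GAL1 was at 7.98 in wild-type culture 5, against 8.24 to 8.37 in the rest of wild type. The deletion mean of 7.89 ± 0.15 (SD, n = 3) lay below it. None of the 9 measured phosphatase and transporter genes had such an array.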

How the results depend on the processing

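No paired analysis was possible because the groups share no replicate numbers. PHO5, PHO11 and PHO89 kept their calls in all 20 alternatives and all 15 pairings, and PHO84 lost its call as given above and at 0.01 and 1.5-fold, so 3 or 4 members were lower throughout. PHO3, PHO8, PHO87, PHO90 and PHO91 passed in none. The genes past the threshold numbered 301, against 126 to 478 without 1 array (126 without deletion culture 8, 478 without wild-type culture 5), 169 with all probe sets, 498 with array weights, 146 without wild-type cultures 1 and 4, 110 at 0.01, 57 at 1.5-fold and as few as 129 over the pairings. The split was 143 genes higher in the deletion and 158 genes lower in the deletion, against 175 and 141 after centring and 175 and 126 after repeated quantile normalization. The 9 other Pho4 targets that fell were 5 without wild-type cultures 1 and 4, 5 at 0.01, 3 at 1.5-fold, as few as 4 over the pairings and 5 to 10 without 1 array (5 without deletion culture 8 or 9). Of 9 member pairs 8 passed, against 0 to 8 without 1 array and 0 over the pairings. The 0 came without deletion culture 8 or 9, where the smallest exact p was 0.0357, and over the pairings, where 3 arrays against 3 cannot go below 0.1. Signs turned for 2 results near 0, neither past the threshold: the difference of PHO90 ran over -0.053 to 0.011 without 1 array (0.011 without deletion culture 8), and was 0.015 with wild-type cultures 1 and 4 left out. PHO5 minus PHO89 was -0.08, -0.10 and -0.02 without wild-type cultures 1, 4 or 6, -0.13 and -0.04 without deletion cultures 8 or 9, and -0.23 without wild-type cultures 1 and 4, with a range of -0.13 to 0.19 without 1 array. The cause was not tested.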

Other observations

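The wild-type values of several members came in close pairs. PHO89 differed by at most 0.09 within cultures 1 and 4, 2 and 5, and 3 and 6, over a wild-type range of 1.28. The same pairing was the closest of the 15 for PHO5, PHO11 and PHO8 as well, and by mean squared difference over all 5449 genes. It was not the closest for PHO84, PHO3, PHO87, PHO90 or PHO91. Counted gene by gene, it was the closest for 12.4% of all genes. Another pairing, of cultures 1 and 4, 2 and 3, and 5 and 6, was the closest for 13.2%. The labels call the wild-type cultures duplicates without saying which belong together, and this pairing was seen in the values, not taken from the labels. With wild-type arrays averaged in those pairs (3 arrays against 3), limma adjusted p was 0.00148 for PHO5, 0.0291 for PHO11, 0.0331 for PHO89, 0.0928 for PHO84 and 0.168 for PHO8, and 143 genes passed.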
